A study of Homo sapiens with 12 samples.

Results

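Many human protein-coding genes have a noncoding neighbour transcribed from the other DNA strand. The members described here are the transcripts named for such a neighbour, with symbols ending in -AS1, -AS2 or -AS3 (antisense) or -DT (divergent transcript), and with a mean of at least 1 CPM over the 12 libraries, where CPM is the count of a gene per 1000000 gene counts of its library. There were 332 such members out of 2073 symbols with these endings, 484 of which had no count in any library, and out of 43236 symbols in all. The members comprised 236 -AS1, 12 -AS2 and 84 -DT symbols, and none ended in -AS3. The members were chosen by their mean CPM, treated libraries included, so their levels are given as a description. Just inside the limit were ZNF516-DT (mean 1.01 CPM), TBX2-AS1 (1.02) and AFF1-AS1 (1.02), and just outside were DEPDC1-AS1 (0.998), DPY19L3-DT (0.993) and TMEM30A-DT (0.991).

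The cells were MNNG/HOS, an established human osteosarcoma line that the labels write HOS-MNNG, and all libraries came from this single line. They received the solvent DMSO or the small molecule NXP800, and polyadenylated RNA was sequenced after 6 h or 24 h with a strand-specific kit. Each of the 4 groups (DMSO 6 h, NXP800 6 h, DMSO 24 h, NXP800 24 h) had 3 libraries. Nothing in the labels says that the 3 came from separate cultures, so the p-values measure the spread between these samples, which may be technical.

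An antisense transcript runs along the opposite strand of its gene and can overlap it, while a divergent transcript starts near the promoter of its gene and runs away from it. Promoters rich in CpG often fire in both directions, and the upstream product is usually short-lived, because early polyadenylation signals and the nuclear exosome limit it. Some of these RNAs escape this fate, are spliced and polyadenylated, and can act on their neighbour or serve as host for small nucleolar RNAs. NXP800 is known to raise the integrated stress response (ISR), in which phosphorylated eIF2α favours translation of the transcription factor ATF4.

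Libraries held 30810614 to 31947656 counts on genes, and the members took 0.190 to 0.194% of them in DMSO at 6 h and 0.218 to 0.226% in NXP800 at 6 h. At 24 h the shares were 0.144 to 0.153% in DMSO and 0.187 to 0.211% in NXP800. The median member had a mean of 2.85 CPM, 120 members were under 2 CPM and 47 were at 10 CPM or more. Of 8 mesenchymal and osteosarcoma markers, VIM lay between 3338 and 5891 CPM, and COL1A1, SPARC, FN1, RUNX2 and TWIST1 were all counted, each at 13.7 CPM or more in every library. COL1A2 and ALPL were at or near 0 (at most 0.378 and 0.222 CPM). The 8 summed to 5335 to 5629 CPM in DMSO and 4682 to 4848 CPM in NXP800 at 6 h, and to 6233 to 7067 and 3966 to 4827 CPM at 24 h, and the part of this lower sum in the members' changes was not tested. The 11 markers of other cell types summed to 6.79 to 11.4 CPM over all libraries, most of it EPCAM at 5.59 to 10.2 CPM.

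The 6 h and 24 h libraries stood apart in a set of members, which bears on every comparison across times. In DMSO, 21 members were over 4 times higher at 6 h than at 24 h, and none was over 4 times lower. They included VIM-AS1, MYL12-AS1, PLCG1-AS1, PABPC4-AS1, PRC1-AS1 and IER3-AS1. The 21 were picked by this ratio, so their lower DMSO level at 24 h follows from the choice. Most of them were under 1 CPM in both 24 h groups, and so reached the level limit through the 6 h libraries. Summed over the 21, the level was 241.5, 234.8 and 127.6 CPM in the DMSO 6 h libraries, 174.4, 198.9 and 181.9 CPM in NXP800 at 6 h, 27.3 to 30.2 CPM in DMSO at 24 h and 22.9 to 26.0 CPM in NXP800 at 24 h. The third DMSO 6 h library was low in all 21, at a median of 0.606 times the mean of the other 2, against 1.02 times in the other 311 members. Read pairs on no annotated gene also differed between the times. They made up 6.66 to 8.14% of pairs at 6 h, with the third DMSO library lowest. At 24 h they made up 2.73 to 3.37% in DMSO and 2.90 to 3.67% in NXP800, where the summed level of the 21 was lower in NXP800. Of the 21, 20 shared 2.51 to 79.4% of their exon bases with a gene on the opposite strand, and the exons of the other, HIF1A-AS2, were not in the annotation used. The labels name no preparation batch, and a batch shared by the libraries of one time, if there was one, cannot be told apart from time.

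**Figure D1:**
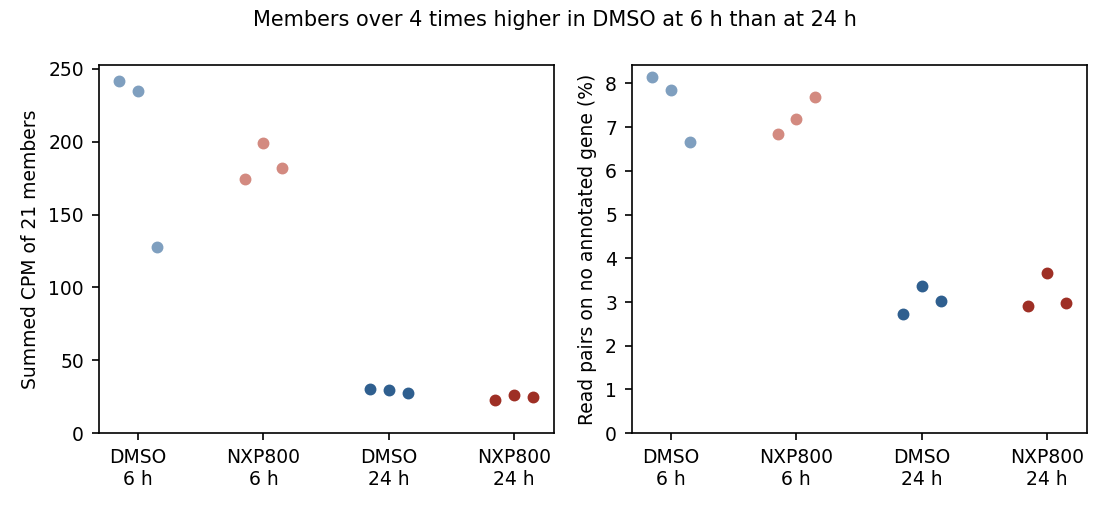
Left, summed level in CPM of the 21 members that were over 4 times higher in DMSO at 6 h than in DMSO at 24 h, 1 point per library. Right, percentage of read pairs on no annotated gene in the same libraries. The third DMSO 6 h library is the lowest of the 6 h libraries in both panels, and all 24 h libraries lie below all 6 h libraries. For the DMSO groups of the left panel this order of the times follows from how the 21 were chosen.

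At 6 h of NXP800, 108 of the 332 members rose (32.5%) and 50 fell (15.1%), and 174 did not pass the test (edgeR's quasi-likelihood test, Benjamini-Hochberg adjusted p under 0.05 over 15979 genes). Over all genes tested, 25% rose and 27.8% fell. At 24 h, 130 members rose (39.2%) and 33 fell (9.94%), where 27.5% of all genes rose and 28.6% fell. The balance of all genes at 24 h depended on the scaling. With library size alone, 33.3% of them rose and 23.4% fell, and 85.4% of the called members rose, against 79.8% here. The median log2 fold change of the members was 0.09 at 6 h and 0.26 at 24 h, beside -0.05 and -0.00 over all genes. Of the 332 members, 36 rose and 10 fell by over 2-fold at 6 h, where 6.02% of all genes tested rose and 5.23% fell by over 2-fold. At 24 h, 46 of the 332 rose and 13 fell by over 2-fold, where 6.73% of all genes tested rose and 7.32% fell so.

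Rises outnumbered falls among the members at each level of abundance. The 10105 other genes in the same range of mean CPM had 28.1% rises and 30.2% falls at 6 h, and 30.5% and 29.2% at 24 h. Of the 120 members under 2 CPM, 21.7% rose and 16.7% fell at 6 h, where other genes of that level had 17.7% and 24.9%. At 24 h these members had 30.8% rises and 10.8% falls, beside 24.7% and 21.5%. Among 116 members at 2 to under 5 CPM, 41 rose and 12 fell at 6 h, and 43 rose and 13 fell at 24 h. For 49 members at 5 to under 10 CPM these were 20 and 10, and 22 and 4. Among the 47 members at 10 CPM or more, 21 rose and 8 fell at 6 h, and 28 rose and 3 fell at 24 h. Other genes of these higher levels were not counted by level. Since a mean over all libraries can admit a member through the group where it is high, the 247 members at 1 CPM or more in every group were also counted, with 84 rises and 36 falls at 6 h and 104 rises and 18 falls at 24 h. Without the 21 members that were far higher in DMSO at 6 h than at 24 h the counts were 106 and 49 at 6 h and 129 and 30 at 24 h. No test compared the members with other genes.

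**Figure D2:**
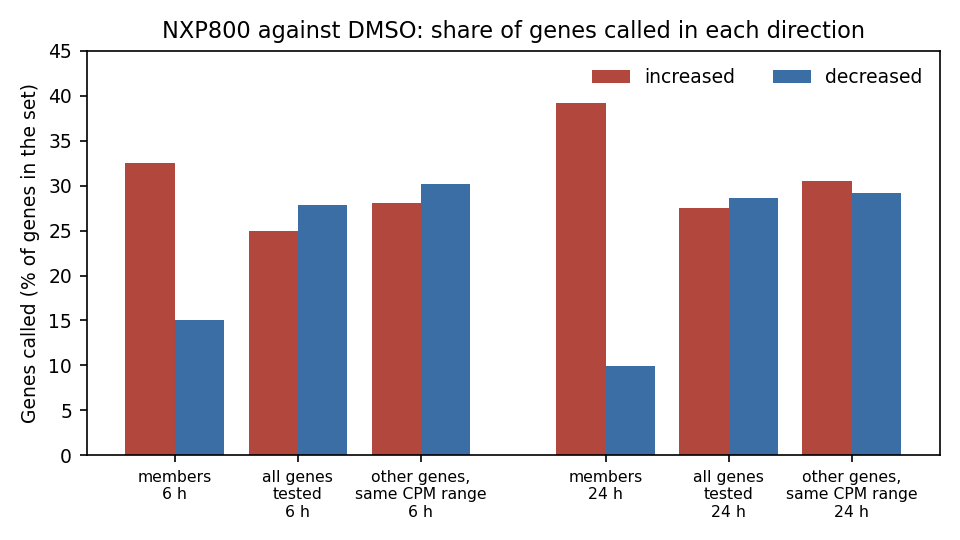
Percentage of genes that rose (red) or fell (blue) under NXP800 at 6 h and 24 h among the 332 members, all 15979 genes tested and the 10105 other genes in the members' range of mean CPM. Among members the red bar is above the blue bar at both times, at 32.5% against 15.1% at 6 h and 39.2% against 9.94% at 24 h, while the bars of the other sets are near each other.

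Of the 108 members that rose at 6 h, 75 also rose at 24 h, which is 69.4% of the 6 h rises and 57.7% of the 24 h rises. Of the 50 falls at 6 h, 12 recurred at 24 h (24.0% of the 6 h falls and 36.4% of the 24 h falls). The -AS and -DT members had similar counts, with 81 rises and 35 falls of 248 -AS members and 27 rises and 15 falls of 84 -DT members at 6 h, and 99 and 25 against 31 and 8 at 24 h.

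The largest rise belonged to VLDLR-AS1, transcribed away from VLDLR, the very-low-density lipoprotein receptor gene and a known ISR target. Its level in CPM was 0.412, 0.504 and 0.365 in DMSO and 3.25, 3.49 and 3.50 in NXP800 at 6 h. At 24 h it was 0.368, 0.370 and 0.275 in DMSO and 2.94, 2.92 and 1.88 in NXP800. All treated libraries were above all DMSO libraries at both times, with log2 fold changes of 2.99 ± 0.23 (SE, n = 3) and 2.92 ± 0.25 (edgeR adjusted p = 3.05e-08 and 6.96e-08). VLDLR itself rose by 1.62 ± 0.11 and 1.51 ± 0.11 on the log2 scale.

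CEBPB-AS1 overlaps CEBPB, which encodes the transcription factor C/EBPβ, with starts 1486 bp apart. CEBPB-AS1 went from 3.10, 3.72 and 2.77 CPM in DMSO to 16.3, 19.6 and 16.6 CPM in NXP800 at 6 h, and from 1.17, 1.04 and 0.687 to 4.19, 5.27 and 3.41 CPM at 24 h. The groups did not overlap at either time, and the log2 fold changes were 2.45 ± 0.17 and 2.14 ± 0.21 (edgeR adjusted p = 7.59e-09 and 3.77e-07). CEBPB rose to a like extent, by 2.51 ± 0.08 and 2.28 ± 0.08, and 8.72% of the exon bases of CEBPB-AS1 lie under exons of the opposite strand.

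KDM7A-DT starts 278 bp from KDM7A, a histone demethylase gene, and shares no exon base with the opposite strand. It rose from 3.01, 2.62 and 2.77 to 11, 10.1 and 11.3 CPM at 6 h and from 3.91, 2.29 and 2.47 to 15.3, 13.8 and 13 CPM at 24 h. The separation was complete at both times (log2 fold changes 1.95 ± 0.16 and 2.28 ± 0.16, edgeR adjusted p = 5.11e-08 and 5.73e-09), and KDM7A rose by 3.42 ± 0.11 and 2.80 ± 0.11. ERRFI1-DT, 184 bp from the start of the EGFR feedback inhibitor gene ERRFI1, went from 0.792, 0.662 and 0.881 to 2.49, 3.61 and 3.29 CPM at 6 h and from 0.769, 1.31 and 1.13 to 1.98, 3.61 and 1.95 CPM at 24 h. Its log2 fold changes were 2.00 ± 0.28 and 1.23 ± 0.27 (edgeR adjusted p = 1.54e-05 and 0.00108), below the 2.54 ± 0.15 and 1.71 ± 0.15 of ERRFI1.

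Other large rises stood beside smaller or uncalled changes of the named gene. SLC25A21-AS1 rose by 1.93 ± 0.20 at 6 h and 1.36 ± 0.22 at 24 h (edgeR adjusted p = 9.17e-07 and 6.25e-05), with all treated libraries above all DMSO libraries. SLC25A21, a mitochondrial carrier gene, had log2 values of -0.35 ± 0.15 and 0.18 ± 0.16 that did not pass the test. ITPR3-AS1 rose from 2.31 ± 0.29 to 9.05 ± 0.45 CPM (mean ± SD, n = 3) at 6 h, a log2 fold change of 1.97 ± 0.14 (SE, edgeR adjusted p = 9.10e-09). At that time the calcium channel gene ITPR3 had 0.14 ± 0.08 (edgeR adjusted p = 0.142), and at 24 h the pair rose together, by 1.63 ± 0.14 and 0.80 ± 0.08. NEXN-AS1 rose by 1.72 ± 0.24 and 1.27 ± 0.29 beside the actin-binding protein gene NEXN at 0.20 ± 0.15 (not passing) and 0.40 ± 0.15. RIPK2-DT rose by 1.64 ± 0.19 and 1.29 ± 0.20, and RIPK2, a kinase gene of NOD receptor signalling, by 0.85 ± 0.06 and 0.61 ± 0.06.

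**Figure D3:**
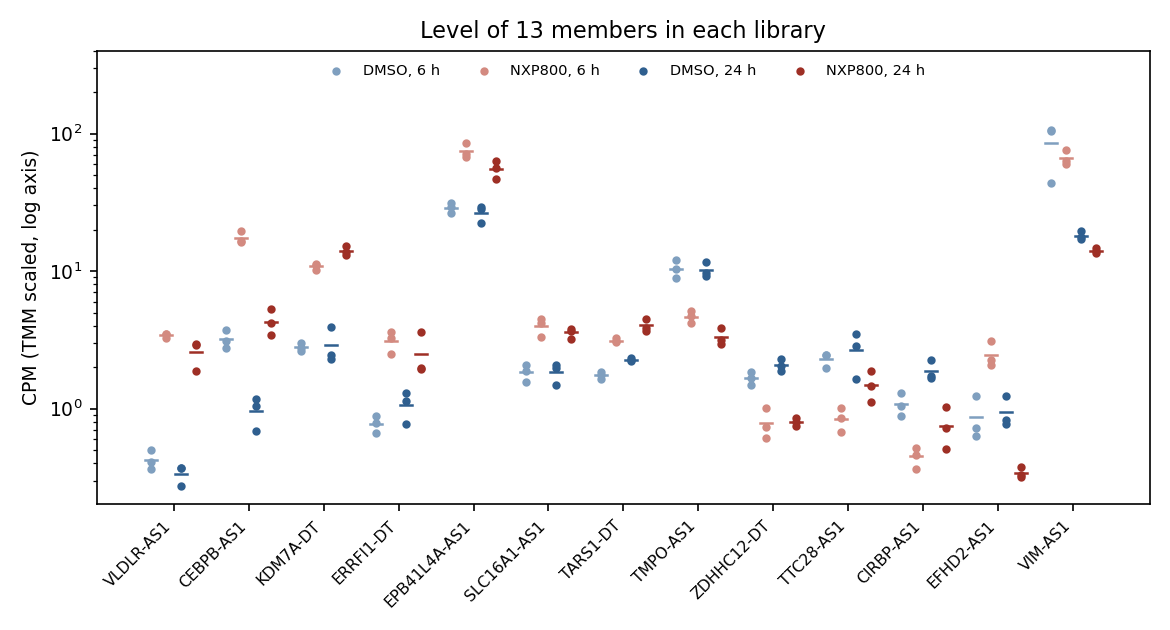
Level of 13 members in each library, in CPM on a log axis, with points for libraries and short bars for group means. VLDLR-AS1, CEBPB-AS1, KDM7A-DT and ERRFI1-DT are higher in NXP800 (red shades) than in DMSO (blue shades) at both times, TMPO-AS1, ZDHHC12-DT and CIRBP-AS1 are lower, and EFHD2-AS1 is higher at 6 h and lower at 24 h.

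The deepest falls at 6 h were of smaller size than the largest rises. TMPO-AS1, beside the gene of the nuclear lamina protein TMPO, fell at both times. It went from 12, 10.4 and 8.87 CPM in DMSO to 4.18, 4.68 and 5.10 CPM in NXP800 at 6 h and from 11.6, 9.68 and 9.24 to 3.83, 3.17 and 2.97 CPM at 24 h. The groups were apart at both times, with log2 fold changes of -1.16 ± 0.14 and -1.62 ± 0.15 (edgeR adjusted p = 4.37e-06 and 1.49e-07). TMPO fell less, by 0.48 and 0.75 on the log2 scale.

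MRPL20-DT, named for a mitochondrial ribosomal protein gene, had 9.22, 8.95 and 13.2 CPM in DMSO and 3.53, 2.97 and 5.19 CPM in NXP800 at 6 h. The groups were apart, and the log2 fold change was -1.43 ± 0.22 (edgeR adjusted p = 4.03e-05). At 24 h it was -0.41 ± 0.20 with overlapping groups (edgeR adjusted p = 0.0988, or 0.000423 when the replicate number enters as block, and 0.0219 without NXP800 24 h replicate 1). MNX1-AS1, beside the homeobox gene MNX1, went from 2.03, 2.40 and 2.28 to 0.921, 0.642 and 0.890 CPM at 6 h, a log2 fold change of -1.45 ± 0.22 (edgeR adjusted p = 4.09e-05). Its 24 h value was -0.34 ± 0.20 (edgeR adjusted p = 0.167), and MNX1 fell at both times, by 1.05 and 0.64.

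CIRBP-AS1 fell while its neighbour CIRBP, the cold-inducible RNA-binding protein gene, rose at 6 h. CIRBP-AS1 had 1.05, 0.883 and 1.31 CPM in DMSO and 0.461, 0.367 and 0.522 CPM in NXP800 at 6 h, and 2.24, 1.68 and 1.72 against 1.02, 0.721 and 0.510 CPM at 24 h. The groups did not overlap, and the log2 fold changes were -1.26 ± 0.29 and -1.32 ± 0.26 (edgeR adjusted p = 0.00177 and 0.00036), beside 0.46 ± 0.13 and 0.24 ± 0.13 (edgeR adjusted p = 0.133 at 24 h) for CIRBP. SLC25A25-AS1 likewise fell at 6 h (-1.31 ± 0.35, edgeR adjusted p = 0.00493) as SLC25A25, a mitochondrial carrier gene with its start 50502 bp away, rose by 0.51 ± 0.07.

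ZDHHC12-DT fell at both times, from 1.49, 1.86 and 1.67 to 1.01, 0.734 and 0.614 CPM at 6 h and from 1.87, 2.05 and 2.30 to 0.859, 0.752 and 0.798 CPM at 24 h. These are log2 fold changes of -1.08 ± 0.22 and -1.37 ± 0.21 (edgeR adjusted p = 0.000528 and 4.84e-05) with no overlap between groups, and the palmitoyltransferase gene ZDHHC12 fell by 0.44 and 0.30. ANXA2R-AS1 (-1.5 ± 0.27), TTC28-AS1 (-1.43 ± 0.28) and LY6E-DT (-1.22 ± 0.25) also fell at 6 h. Their 24 h falls were smaller, at -0.71 ± 0.25, -0.83 ± 0.26 and -0.60 ± 0.25, and each was lost in some fits with a library left out. The call of ANXA2R-AS1 was lost without DMSO 24 h replicate 2 or NXP800 24 h replicate 1 or 2 (edgeR adjusted p = 0.0755 to 0.117), and that of TTC28-AS1 without DMSO 24 h replicate 2 (0.0853) or NXP800 24 h replicate 1 (0.0566). That of LY6E-DT was lost without DMSO 24 h replicate 2 or 3 or NXP800 24 h replicate 1 or 2 (0.0669 to 0.223). The 24 h call of LY6E-DT was also lost with RLE scaling (0.052), library size alone (0.0924), the 6 libraries of that time alone (0.0809) and DESeq2 (0.0794), and that of ANXA2R-AS1 with DESeq2 (0.0566).

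Some of the largest rises at 24 h had smaller or uncalled values at 6 h. CLDN14-AS1 went from 0.502, 0.605 and 0.446 to 3.20, 3.61 and 2.87 CPM at 24 h (log2 fold change 2.63 ± 0.20, edgeR adjusted p = 1.65e-08), against 0.78 ± 0.18 at 6 h. The claudin gene CLDN14 itself was hardly counted, at no more than 0.0204 CPM in any group mean. PGLS-DT, 240 bp from the start of the pentose phosphate pathway gene PGLS, went from 0.569, 0.471 and 0.515 to 2.34, 2.82 and 3.80 CPM at 24 h (2.52 ± 0.27, edgeR adjusted p = 8.32e-07), while at 6 h its groups overlapped (0.44 ± 0.29, edgeR adjusted p = 0.218). MSC-AS1 had 0.736, 0.336 and 0.446 CPM in DMSO and 2.84, 1.76 and 2.01 CPM in NXP800 at 24 h (2.11 ± 0.27, edgeR adjusted p = 6.69e-06) and -0.29 ± 0.26 at 6 h (edgeR adjusted p = 0.374). MSC, a basic helix-loop-helix repressor gene, had already risen by 2.49 ± 0.25 at 6 h and was up by 2.83 ± 0.33 at 24 h.

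C2CD4D-AS1 and TLR8-AS1 rose at both times beside genes that were nearly silent. C2CD4D-AS1 had 4.53, 4.45 and 3.49 CPM in DMSO and 10.9, 10.9 and 9.06 CPM in NXP800 at 6 h, and 1.94, 1.85 and 2.23 against 8.72, 7.87 and 6.03 CPM at 24 h. The log2 fold changes were 1.31 ± 0.15 and 1.91 ± 0.17 (edgeR adjusted p = 2.31e-06 and 9.14e-08). TLR8-AS1 rose by 1.02 ± 0.28 and 1.70 ± 0.31 (edgeR adjusted p = 0.00605 and 0.000201). C2CD4D did not exceed 0.245 CPM and TLR8, an RNA-sensing receptor gene, 0.0102 CPM in any group mean.

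Among the falls at 24 h, ITGB2-AS1, named for the β2 integrin gene, went from 1.91, 3.6 and 2.27 to 0.594, 0.847 and 0.574 CPM, a log2 fold change of -1.94 ± 0.30 (edgeR adjusted p = 3.59e-05), and ITGB2 fell by 0.92. Its 6 h fall of -0.68 ± 0.25 (edgeR adjusted p = 0.0287) was lost without DMSO 6 h replicate 2 or 3 or NXP800 6 h replicate 1 or 2 (0.0546 to 0.135). TBX2-AS1 fell from 0.970, 1.65 and 2.20 to 0.396, 0.376 and 0.830 CPM (-1.58 ± 0.34, edgeR adjusted p = 0.000821), and the T-box gene TBX2, 237 bp from it, went up by 0.83 ± 0.09 at 6 h and down by 0.69 at 24 h. PRC1-AS1, PABPC4-AS1 and IGFBP7-AS1 fell at 24 h from means of 0.304, 0.281 and 0.315 CPM to 0.117, 0.106 and 0.118 CPM. These 3 belong to the 21 members that were far higher in DMSO at 6 h than at 24 h, and stood at 3.54, 6.89 and 2.06 CPM in DMSO at 6 h. The 24 h call of PRC1-AS1 was lost without DMSO 24 h replicate 2 (edgeR adjusted p = 0.133) or NXP800 24 h replicate 1 (0.0596). That of PABPC4-AS1 was lost without DMSO 24 h replicate 1 or 2 or NXP800 24 h replicate 1 or 2 (0.0608 to 0.134), and that of IGFBP7-AS1 without DMSO 24 h replicate 2 or NXP800 24 h replicate 1 or 3 (0.0523 to 0.109). At 6 h PABPC4-AS1 had -0.41 ± 0.18 (edgeR adjusted p = 0.0613, or 0.0143 with the block and 0.0154 without DMSO 6 h replicate 3).

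The response at 24 h was compared with that at 6 h in the same fit. It was higher in 48 members (14.5%) and lower in 21 (6.33%), where 12% and 13.8% of all genes tested were called. With library size alone as scaling, 80.6% of the called members were higher at 24 h, against 69.6% here. All genes tested moved the same way under that scaling, to 15.4% higher and 10.5% lower. With the replicate block the counts of members were 73 and 36, and the shares of all genes with the block are not given here. The 21 lower members fell to 10 to 12 without NXP800 6 h replicate 2 or 3, DMSO 24 h replicate 2 or NXP800 24 h replicate 1 or 3, and to no fewer than 10 in any such fit. Each time point had its own DMSO libraries, and the labels do not say whether the libraries of both times were prepared together.

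EFHD2-AS1 changed direction between the times. It rose from 0.729, 0.631 and 1.25 to 2.24, 2.08 and 3.10 CPM at 6 h and fell from 0.769, 1.24 and 0.824 to 0.330, 0.376 and 0.319 CPM at 24 h, with no overlap at either time (log2 fold changes 1.5 ± 0.26 and -1.46 ± 0.34, edgeR adjusted p = 0.000158 and 0.0018). The difference of the responses was -2.96 ± 0.43 (edgeR adjusted p = 0.000128). EFHD2, which encodes a calcium-binding actin regulator, fell at both times, by 0.52 and 1.15. STEAP1B-AS1 (0.78 ± 0.14 and -0.47 ± 0.16) and NUP153-AS1 (0.28 ± 0.08 and -0.56 ± 0.08) had the same order. EPHA2-AS1 rose at 6 h alone (1.40 ± 0.17, and 0.09 ± 0.18 at 24 h), and SLC9A3-AS1 at 24 h alone (-0.24 ± 0.20 at 6 h and 1.42 ± 0.19). The 24 h fall of STEAP1B-AS1 was lost without DMSO 24 h replicate 2 (edgeR adjusted p = 0.0579) or NXP800 24 h replicate 3 (0.0817), and with library size alone as scaling (0.0586).

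The other 6 members called in opposite directions fell at 6 h and rose at 24 h. CAMSAP1-DT, 287 bp from a microtubule minus-end protein gene, went from 17.7, 16.1 and 18.1 to 14, 14.8 and 14.5 CPM at 6 h and from 12.8, 12.5 and 14.4 to 22.2, 24.6 and 25.1 CPM at 24 h (-0.26 ± 0.09 and 0.86 ± 0.09, edgeR adjusted p = 0.0197 and 4.89e-07). The others were PRKCZ-AS1 (-0.94 ± 0.29 and 0.90 ± 0.23), ATP6V0E2-AS1 (-0.36 ± 0.14 and 0.94 ± 0.13), HSD17B1-AS1 (-0.25 ± 0.09 and 0.52 ± 0.09), FOXD2-AS1 (-0.48 ± 0.19 and 0.45 ± 0.18) and AGAP2-AS1 (-0.22 ± 0.08 and 0.20 ± 0.08). Each of their 6 h calls was lost without some single library. For CAMSAP1-DT these were DMSO 6 h replicate 1 or 3 or NXP800 6 h replicate 1 (edgeR adjusted p = 0.0606 to 0.0733), and for PRKCZ-AS1 DMSO 6 h replicate 3 (0.0581) or NXP800 6 h replicate 3 (0.0559). For ATP6V0E2-AS1 they were DMSO 6 h replicate 2 or 3 or any NXP800 6 h replicate (0.0519 to 0.143), for HSD17B1-AS1 DMSO 6 h replicate 2 or 3 or NXP800 6 h replicate 1 or 2 (0.0576 to 0.124), and for FOXD2-AS1 any DMSO 6 h replicate or NXP800 6 h replicate 1 or 2 (0.0576 to 0.223). For AGAP2-AS1 they were any DMSO 6 h replicate or NXP800 6 h replicate 2 or 3 (0.0557 to 0.111). Other settings also ended 6 h calls, with adjusted p from 0.0501 to 0.113. They were RLE scaling for AGAP2-AS1 and FOXD2-AS1, library size alone for FOXD2-AS1 and HSD17B1-AS1, no filter on low counts for AGAP2-AS1, ATP6V0E2-AS1, CAMSAP1-DT and HSD17B1-AS1, the 6 libraries of that time alone for AGAP2-AS1, ATP6V0E2-AS1, FOXD2-AS1 and HSD17B1-AS1, and DESeq2 for AGAP2-AS1, ATP6V0E2-AS1 and HSD17B1-AS1. At 24 h, AGAP2-AS1 was lost without the filter (0.0874) and with the 6 libraries of that time alone (0.0572). With single libraries left out, the 24 h rises of FOXD2-AS1 and AGAP2-AS1 were lost too, the first without DMSO 24 h replicate 1 or 2 or NXP800 24 h replicate 1 or 3 (0.0605 to 0.217), the other without DMSO 24 h replicate 2 or 3 or NXP800 24 h replicate 1 or 3 (0.0684 to 0.15).

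**Figure D4:**
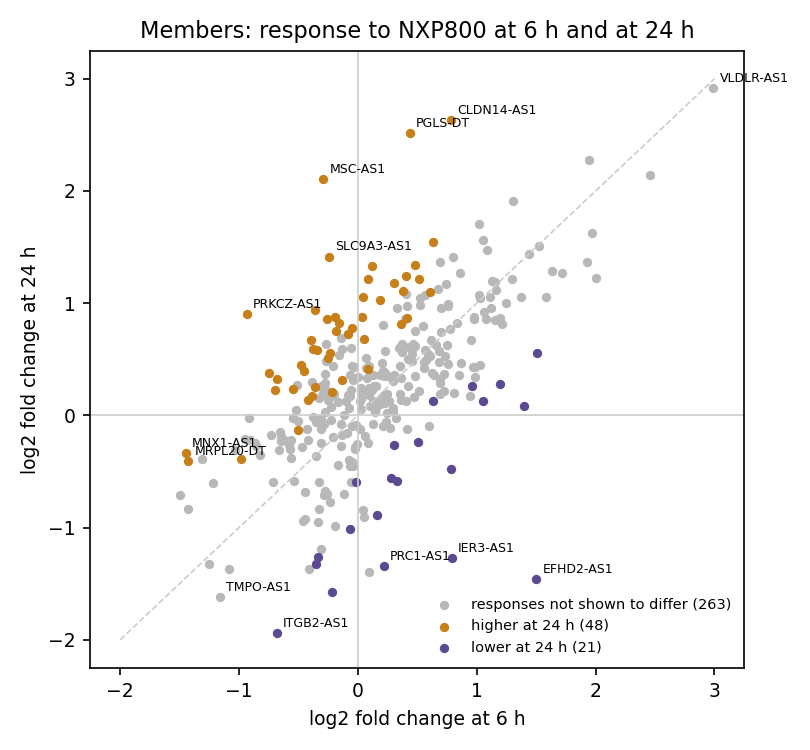
Log2 fold change (NXP800 against DMSO) of each of the 332 members at 6 h (horizontal) and 24 h (vertical), with the line of equality dashed. Members whose 24 h response was higher (48) or lower (21) than the 6 h response are coloured, and EFHD2-AS1 lies farthest below the line at 1.5 and -1.46.

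Each member was set beside the gene whose name it carries. The named gene was in the count tables for 329 members (325 different genes), and both were tested in 308 pairs. At 6 h the member and its gene both rose in 45 pairs and both fell in 27. The member rose and the gene fell in 21, and the member fell and the gene rose in 7. In the remaining pairs, 45 had a call for the member alone, 94 for the gene alone and 69 for neither. Of the 100 pairs called on both sides, 72 went the same way. At 24 h, 54 rose together, 19 fell together, 21 had a rising member and a falling gene and 3 the reverse, so that 73 of 97 went the same way (75.3%). With the replicate block 88 pairs were called the same way and 43 opposite ways at 24 h. Across the 308 pairs Pearson's r of the log2 fold changes was 0.413 at 6 h and 0.482 at 24 h. This is a description across genes measured in the same libraries, and pairs are not independent replicates. The named genes as a whole were balanced, with 98 rises and 96 falls at 6 h and 97 and 99 at 24 h.

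**Figure D5:**
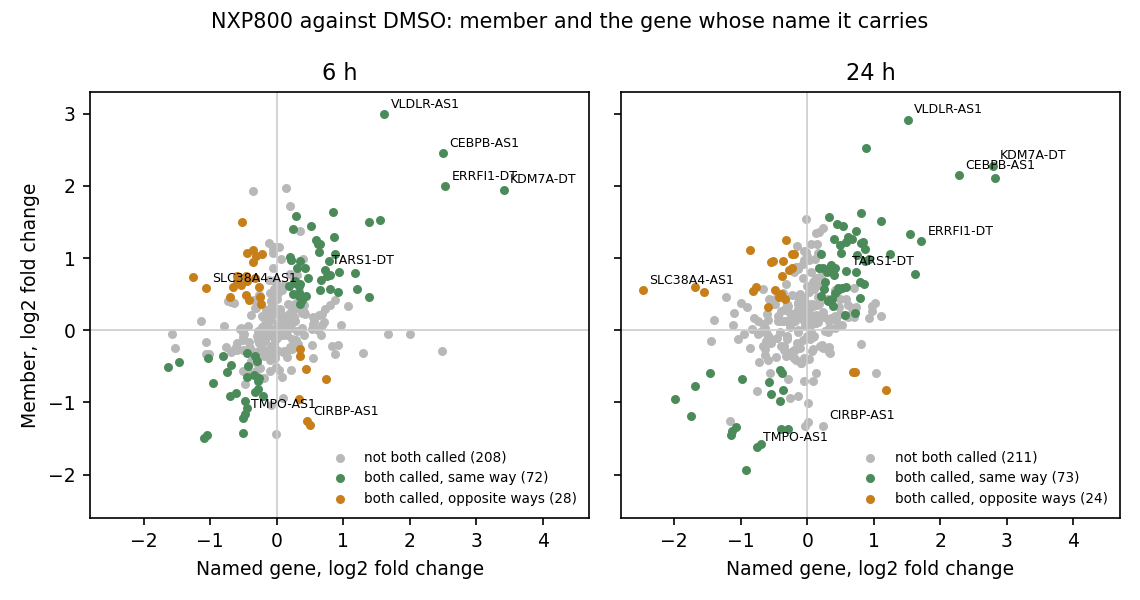
Log2 fold change of the named gene (horizontal) and of the member (vertical) for 308 pairs at 6 h (left) and 24 h (right). Green points are pairs called in the same direction (72 at 6 h and 73 at 24 h), orange points pairs called in opposite directions (28 and 24), and grey points the rest.

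Pairs differed in arrangement. In 172 pairs the starts lay within 1 kb on opposite strands, as at a shared promoter, and of these members 61 rose and 20 fell at 6 h and 70 rose and 14 fell at 24 h (median log2 fold changes 0.20 and 0.34). In 141 overlapping pairs with starts farther apart, 39 rose and 26 fell at 6 h and 49 rose and 18 fell at 24 h (-0.04 and 0.21). A further 12 pairs did not overlap, 1 was on the same strand and 3 could not be placed. Both went the same way in 40 of 56 doubly called pairs with near starts and in 27 of 36 overlapping pairs at 6 h, and in 39 of 52 and 29 of 38 at 24 h. The difference between arrangements was not tested.

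Overlap on the other strand limits how far reads can be assigned, since the strand setting of the counting is not given in the sources used here. No exon base was shared with an opposite-strand gene in 79 members, and 31 of these rose and 12 fell at 6 h (39.2% and 15.2%) and 31 rose and 8 fell at 24 h (39.2% and 10.1%). In 22 members over 50% of exon bases were shared, with 5 rises and 5 falls at 6 h and 8 and 4 at 24 h.

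Members that rose as their gene fell included SLC16A1-AS1 at a shared promoter. SLC16A1-AS1, 219 bp from the lactate transporter gene SLC16A1, had 2.09, 1.58 and 1.88 CPM in DMSO and 4.21, 4.50 and 3.35 CPM in NXP800 at 6 h, and 1.97, 1.48 and 2.09 against 3.70, 3.83 and 3.22 CPM at 24 h. The groups were apart at both times (1.12 ± 0.18 and 0.95 ± 0.18, edgeR adjusted p = 6.39e-05 and 0.000298) while SLC16A1 fell by 0.35 and 0.51.

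Other opposed pairs had more distant starts or opposed at a single time. SLC38A4-AS1 rose by 0.59 ± 0.19 and 0.55 ± 0.18 as the amino acid transporter gene SLC38A4, 448755 bp away, fell by 1.07 and 2.47. Its 6 h rise was lost without DMSO 6 h replicate 1 or 3 or NXP800 6 h replicate 2 (edgeR adjusted p = 0.0559 to 0.0648), and its 24 h rise without DMSO 24 h replicate 1 or 3 or NXP800 24 h replicate 1 (0.0628 to 0.0826). ST7-AS1 rose by 1.06 ± 0.28 at 6 h (edgeR adjusted p = 0.00444) as ST7 fell by 0.44. FBXL19-AS1 (1.24 ± 0.17) and ADGRL1-AS1 (1.11 ± 0.17) rose at 24 h as FBXL19 fell by 0.32 and ADGRL1 by 0.86. At 6 h FBXL19-AS1 had 0.40 ± 0.17 (edgeR adjusted p = 0.056, or 0.0159 with the block, 0.0454 with RLE scaling and 0.0189 with the 6 libraries of that time alone). ADGRL1-AS1 had 0.38 ± 0.17 at 6 h (edgeR adjusted p = 0.0743, or 0.0393 with the block and 0.0353 without DMSO 6 h replicate 2). TNS2-AS1 rose by 0.60 ± 0.22 at 24 h, when the tensin gene TNS2 fell by 1.69, a call lost without DMSO 24 h replicate 1 or 2 or NXP800 24 h replicate 1 or 3 (0.0754 to 0.0945) and with DESeq2 (0.0702). IQCH-AS1 went the other way, with -0.68 ± 0.17 at 6 h (edgeR adjusted p = 0.00279) and a rise of 0.75 ± 0.14 for IQCH. At 24 h IQCH-AS1 had 0.32 ± 0.16 (edgeR adjusted p = 0.0979, or 0.0476 with the block, 0.0415 with library size alone and 0.0421 without NXP800 24 h replicate 1).

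The list of ISR and ATF4 target genes held 59 genes, of which 51 of the 56 tested rose and 1 fell at 6 h, and 50 rose and 2 fell at 24 h. Members were named for 4 of them. VLDLR-AS1 and CEBPB-AS1 are described above. TARS1-DT starts 62 bp from TARS1, the threonyl-tRNA synthetase gene, and had 1.65, 1.77 and 1.85 CPM in DMSO and 3.10, 3.24 and 3.04 CPM in NXP800 at 6 h. At 24 h it had 2.27, 2.32 and 2.23 CPM against 4.49, 3.89 and 3.70 CPM. The groups were apart, with log2 fold changes of 0.83 ± 0.15 and 0.82 ± 0.14 (edgeR adjusted p = 0.000173 and 0.000119), near the 0.73 ± 0.08 and 0.58 ± 0.08 of TARS1. GARS1-DT starts 16956 bp from GARS1, the glycyl-tRNA synthetase gene. It had 1.62, 1.48 and 2.00 CPM in DMSO and 1.17, 1.5 and 1.44 CPM in NXP800 at 6 h, and its log2 values of -0.31 ± 0.20 and 0.26 ± 0.20 did not pass the test (edgeR adjusted p = 0.194 and 0.283), while GARS1 rose by 1.29 ± 0.09 and 0.98 ± 0.09.

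Of the 8 members with the highest mean CPM, EPB41L4A-AS1, a host of a small nucleolar RNA, rose most. It went from 26.4, 29.4 and 31 to 85.8, 71.2 and 67.9 CPM at 6 h and from 28.3, 29.1 and 22.6 to 62.7, 56.1 and 47.1 CPM at 24 h. The groups were apart at both times (1.37 ± 0.12 and 1.05 ± 0.12, edgeR adjusted p = 9.80e-08 and 1.47e-06), and EPB41L4A, at group means of 0.328 to 1.24 CPM, had 0.35 ± 0.25 (edgeR adjusted p = 0.245) and 1.24 ± 0.32. FGD5-AS1 had the highest level of all, with 88.0, 94.0 and 96.7 CPM in DMSO and 60.9, 65.9 and 70.2 CPM in NXP800 at 6 h, a fall of 0.50 ± 0.07 on the log2 scale (edgeR adjusted p = 1.13e-05). At 24 h the value was -0.13 ± 0.07 (edgeR adjusted p = 0.104, or 0.0207 with the block).

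OIP5-AS1, the human form of the RNA cyrano, which binds miR-7, had 74.9, 79.2 and 72.2 CPM in DMSO and 62.2, 60.8 and 59.0 CPM in NXP800 at 6 h. The groups were apart (-0.31 ± 0.08, edgeR adjusted p = 0.00408), and at 24 h they overlapped (-0.03 ± 0.08, edgeR adjusted p = 0.79). ZNF496-DT fell (-0.38 ± 0.10) at 6 h, while OTUD6B-AS1 (0.41 ± 0.07) and VPS9D1-AS1 (0.24 ± 0.08) rose at 24 h, the last call being lost without DMSO 24 h replicate 3 (0.107) or NXP800 24 h replicate 1 (0.104). VIM-AS1 had 105, 107 and 43.8 CPM in DMSO and 60.0, 75.9 and 63.2 CPM in NXP800 at 6 h. The third DMSO library, low in the whole set of 21 members, was below all treated libraries and the others above them. The log2 value of -0.36 ± 0.21 did not pass the test (edgeR adjusted p = 0.177) and did so without that library (2.58e-05) or without the filter on low counts (0.000124).

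Levels between genes were compared per length of exon. In DMSO at 6 h, 255 of 323 members were below their named gene in CPM per kb and 68 were above, with medians of 0.910 CPM per kb for members and 5.77 CPM per kb for named genes. As for factors known to remove or shorten such transcripts, the list of 50 genes of the nuclear exosome, its adaptors, the cap-binding complex, Integrator, cleavage factors and U1 snRNP had 15 rises and 12 falls among 49 tested at 6 h, and 12 and 13 at 24 h (median log2 fold changes -0.02 and 0.01). These are 30.6% and 24.5% at 6 h and 24.5% and 26.5% at 24 h, near the 25% and 27.8%, and 27.5% and 28.6%, of all genes tested. With the replicate block the list had 19 rises and 16 falls at 6 h and 15 and 15 at 24 h. The exosome genes had 3 rises and 3 falls of 13 at 6 h and 4 and 2 at 24 h, and the Integrator genes 4 and 5 of 14 and then 2 and 5.

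Promoter sequence was examined because 172 of the pairs start within 1 kb of each other. RefSeq promoter windows (GRCh38.p14, 250 bases before to 50 after a start site) were found for 266 members, 326 windows in all since some have several starts. Their median GC content was 67%, beside 64.7% in the 17555 windows of genes tested and 58.7% in all 35116 windows. The core shared by C/EBP-ATF composite elements, TGATGNAA on either strand, was in 5 of the 326 member windows (1.53%), in 2.18% of windows of genes tested and in 3.62% of all windows. These belong to DLGAP1-AS2, EFHD2-AS1, GOT1-DT, NUP153-AS1 and ZBED3-AS1. The AP-1 motif TGACTCA was in 16 member windows (4.91%, beside 3.9% for genes tested and 4.95% for all windows), of which 8 were among the 110 windows of members that rose at 6 h (7.27%), 2 among the 49 of those that fell (4.08%) and 6 among the 167 of the rest (3.59%). By the calls at 24 h the AP-1 shares were 5.83%, 3.45% and 4.52%. The C/EBP-ATF core was in 4 of the 110 windows of members that rose at 6 h (3.64%), in 0 of the 49 of those that fell and in 1 of the 167 of the rest (0.599%), and by the calls at 24 h in 1.67%, 6.90% and 0.565%. The cyclic AMP response element TGACGTCA was in 2.45% of member windows (2.71% for genes tested, 1.85% for all), and CCAAT in 28.8% (34% and 34.6%). The E-box CACGTG was in 8.28% (9.18% and 7.26%) and the GC box GGGCGG in 62.3% (64.4% and 45%). These are matches of letters, not sites, and were not tested.

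The promoter windows below are those of VLDLR-AS1, KDM7A-DT and ERRFI1-DT, among the largest rises, of TMPO-AS1, among the largest falls, of TARS1-DT as a member named for an ISR gene, and of DLGAP1-AS2, which was picked for its motif matches after its values were seen. In 5 of the 6 pairs the starts lay within 1 kb. Each is written 5′ to 3′ on the member's strand, with any of the 6 motifs in capitals in either orientation. Those of VLDLR-AS1 (chr9:2622324-2622623, minus strand) and TMPO-AS1 (chr12:98516177-98516476, minus) held no match. KDM7A-DT (chr7:140177011-140177310, plus) held 2 GC boxes, ERRFI1-DT (chr1:8026243-8026542, plus) a reversed GC box and CCAAT, and TARS1-DT (chr5:33440585-33440884, minus) CCAAT. The core of the C/EBP-ATF element near TARS1-DT lay outside its window, at chr5:33440967-33440974, and 83 bp beyond it. The core was in a TARS1 window (chr5:33440715-33441014), with its first base 2 bases after the start site of that window. The start sites of these 2 windows lie farther apart than the 62 bp between the starts of the gene spans. This core was in 11 of the 449 windows of named genes (2.45%, beside 2.18% for genes tested), that of GARS1 included. Of the members named for these genes, TARS1-DT, NUP153-AS1 and SBF2-AS1 rose at 6 h, and the others, GARS1-DT included, were not called. At 24 h TARS1-DT and SBF2-AS1 rose, NUP153-AS1 and GNAS-AS1 fell, and the others were not called. A link between this core and the members' changes was not tested. DLGAP1-AS2 (chr18:3603487-3603786, plus), which rose by 1.16 and 1.11 on the log2 scale, held an E-box, the C/EBP-ATF core and then 2 AP-1 motifs, the first of these reversed.
VLDLR-AS1: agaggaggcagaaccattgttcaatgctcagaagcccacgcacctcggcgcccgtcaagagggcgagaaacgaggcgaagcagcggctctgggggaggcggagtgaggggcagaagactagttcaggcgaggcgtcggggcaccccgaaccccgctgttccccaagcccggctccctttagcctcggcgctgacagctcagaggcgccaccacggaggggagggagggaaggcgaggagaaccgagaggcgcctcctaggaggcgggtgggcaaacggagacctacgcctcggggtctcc
KDM7A-DT: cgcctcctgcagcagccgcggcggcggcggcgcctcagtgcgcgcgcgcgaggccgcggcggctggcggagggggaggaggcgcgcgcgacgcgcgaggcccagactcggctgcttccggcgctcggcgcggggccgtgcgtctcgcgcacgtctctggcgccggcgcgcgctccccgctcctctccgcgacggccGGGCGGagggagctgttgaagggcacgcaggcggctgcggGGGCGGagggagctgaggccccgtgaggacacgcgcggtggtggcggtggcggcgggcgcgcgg
ERRFI1-DT: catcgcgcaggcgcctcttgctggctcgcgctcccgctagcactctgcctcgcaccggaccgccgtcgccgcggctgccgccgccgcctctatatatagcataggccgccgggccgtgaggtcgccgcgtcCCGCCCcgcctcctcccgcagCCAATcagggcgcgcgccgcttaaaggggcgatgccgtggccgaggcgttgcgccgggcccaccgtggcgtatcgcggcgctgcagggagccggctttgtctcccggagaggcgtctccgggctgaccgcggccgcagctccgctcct
TARS1-DT: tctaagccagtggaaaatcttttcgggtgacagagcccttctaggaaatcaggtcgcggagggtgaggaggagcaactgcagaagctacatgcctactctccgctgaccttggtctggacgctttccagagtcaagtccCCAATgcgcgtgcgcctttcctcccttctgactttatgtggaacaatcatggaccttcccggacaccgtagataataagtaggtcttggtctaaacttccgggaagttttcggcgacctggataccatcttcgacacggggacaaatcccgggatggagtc
DLGAP1-AS2: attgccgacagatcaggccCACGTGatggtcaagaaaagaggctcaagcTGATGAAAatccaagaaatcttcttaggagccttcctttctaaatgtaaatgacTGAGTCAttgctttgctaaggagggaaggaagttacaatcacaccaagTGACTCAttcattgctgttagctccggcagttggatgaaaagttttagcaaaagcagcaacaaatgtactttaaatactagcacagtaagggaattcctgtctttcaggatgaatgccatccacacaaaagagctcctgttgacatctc
TMPO-AS1: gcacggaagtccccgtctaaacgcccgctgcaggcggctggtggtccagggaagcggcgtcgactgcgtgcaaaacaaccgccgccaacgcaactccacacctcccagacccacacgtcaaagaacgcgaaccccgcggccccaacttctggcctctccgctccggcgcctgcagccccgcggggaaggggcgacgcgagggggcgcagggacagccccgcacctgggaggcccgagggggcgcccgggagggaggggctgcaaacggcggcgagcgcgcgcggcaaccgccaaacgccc
The GC content of these windows was 82% for KDM7A-DT, 74.7% for ERRFI1-DT, 73.3% for TMPO-AS1, 67.3% for VLDLR-AS1, 53% for TARS1-DT and 42% for DLGAP1-AS2. DLGAP1-AS2 starts 851570 bp from the start of DLGAP1, and its exons share no base with the opposite strand.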

How the data were processed

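RNA of MNNG/HOS cells given DMSO or NXP800 was measured as polyadenylated, paired-end RNA-seq. The authors trimmed reads with fastp 0.20.1, aligned them with STAR 2.7.5a to hg38 (GRCh38.p14) with gene counts by HTSeq 0.12.4 on the RefSeq annotation, and the deposited values are these raw counts. The strand setting and mode of counting are not given in the sources used here. The lines of the counter that name no gene (2.73 to 8.14% on no gene, 2.10 to 2.43% ambiguous) were left out.

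Counts were tested in R 4.3.3 with edgeR 4.0.16 and limma 3.58.1: filterByExpr (15979 genes), TMM scaling, a quasi-likelihood model of the 4 groups, and contrasts at 6 h, at 24 h and for their difference, at a Benjamini-Hochberg adjusted p under 0.05. CPM in the text are TMM scaled, except the mean over the 12 libraries that chose members. The classes of level and the limit of 1 CPM in every group were also taken from CPM without TMM scaling. A constant of 0.1 CPM was added for ratios between the times. The script was tested on simulated data.

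Members, lists, tests and the rule for named members were chosen with earlier results of these data known. The rule took the 8 largest called rises and falls at each time, the 5 largest called differences each way, members called in opposite directions at the 2 times, the 8 most opposed pairs at each time, members named for ISR genes, the 8 most abundant members and those at the level limit. DLGAP1-AS2, SBF2-AS1, GNAS-AS1 and the members with motif matches lie outside it and were named after their values were seen. Same-numbered libraries deviated together (correlations 0.159 to 0.329, against -0.268 to 0.058 for other numbers). This pairing was read from the data and not from the labels. It entered only the alternative fit with the replicate block, and the main calls and p-values come from the fit without it. Replicates differed by more than sampling noise (chi-square 7.36 to 26.3 per degree of freedom). Alternatives were RLE and library-size scaling, other count filters, DESeq2 1.42.0, single-time fits, the replicate block, other thresholds and leaving out each library. Spans came from RefSeq, and exon overlap from GENCODE release 44. Some members that the rule named are not reported here.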

Additional observations from a re-analysis of the deposited data

Results flagged for a closer look

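The response to NXP800 differed between 24 h and 6 h, by the test of that difference in edgeR's quasi-likelihood model, in 25 of the named members. Values are the log2 response at 24 h minus that at 6 h. The labels name no preparation batch, a batch shared by the libraries of one time cannot be told apart from time, and no explanation was tested.

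The response was higher at 24 h for MSC-AS1 by 2.40, PGLS-DT by 2.08, CLDN14-AS1 by 1.85, PRKCZ-AS1 by 1.84, SLC9A3-AS1 by 1.66 and ATP6V0E2-AS1 by 1.30. Smaller differences of this direction were 1.12 for CAMSAP1-DT, 1.11 for MNX1-AS1, 1.02 for MRPL20-DT, 1.00 for IQCH-AS1, 0.93 for FOXD2-AS1, 0.84 for FBXL19-AS1, 0.77 for HSD17B1-AS1, 0.72 for ADGRL1-AS1, 0.43 for AGAP2-AS1, 0.37 for FGD5-AS1 and 0.33 for OTUD6B-AS1.

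The response was lower at 24 h for EFHD2-AS1 (-2.96), IER3-AS1 (-2.06), PRC1-AS1 (-1.56), TBX2-AS1 (-1.36), EPHA2-AS1 (-1.31), ITGB2-AS1 (-1.26), STEAP1B-AS1 (-1.26) and NUP153-AS1 (-0.83). IER3-AS1 and PRC1-AS1 are among the 21 members far higher in DMSO at 6 h than at 24 h. The differences of MRPL20-DT, ITGB2-AS1, TBX2-AS1, PRC1-AS1, IER3-AS1, ADGRL1-AS1 and OTUD6B-AS1 were each lost without some single library, with edgeR adjusted p between 0.0508 and 0.131.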

How the results depend on the processing

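Leaving out each library in turn gave 94 to 102 rises and 34 to 47 falls at 6 h, 107 to 121 rises and 24 to 33 falls at 24 h, and 36 to 49 higher and 10 to 22 lower differences between the times. A limit of over 2-fold left 36 rises and 10 falls at 6 h and 46 and 13 at 24 h. At an adjusted p under 0.01 there were 27 falls at 6 h, 20 falls at 24 h, and 22 higher and 7 lower differences. The number of members was 212 at a mean of at least 2 CPM, with 30 falls at 6 h and 20 at 24 h, and the number of members was 529 at 0.5 CPM. For the adjusted p under 0.01 and for 2 CPM, the rises and the shares of all genes tested are not given here. An excess of rises cannot be read from these counts. With the replicate block, differences rose to 73 higher and 36 lower and pairs called opposite ways at 24 h to 43. All calls of members without the block were kept in it, and among the named members reported here it changed no other call than the added ones given beside the results, and for the difference between times ERRFI1-DT, SLC25A21-AS1, SLC25A25-AS1, TMPO-AS1, C2CD4D-AS1, IGFBP7-AS1, OIP5-AS1, EPB41L4A-AS1 and ZNF496-DT. Scaling by library size alone moved the median of all genes by up to 0.09 on the log2 scale. Over all settings 2293 values of named members kept their call and direction, 145 lost the call, 51 gained one and 0 reversed. The causes were not tested. The set without the 21 members far higher in DMSO at 6 h than at 24 h was chosen after seeing the data.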
